A study of Mus musculus with 58 samples.

Results

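Cirbp and Rbm3 encode small RNA-binding proteins whose transcripts accumulate when cells are cooled mildly. They are 2 of the 52459 gene symbols counted in mouse retina and were taken by symbol. RNA came from single retinas of 4-month-old male mice on a C57BL/6 background, kept from birth under 12 h of light and 12 h of dark. The diabetic group carried 1 copy of Ins2Akita, a point mutation that makes insulin misfold and beta cells die, and the control group was their wild-type male littermates. Retinas were taken at 6 zeitgeber times (ZT, hours from lights on), of which ZT1, ZT5 and ZT9 are in the light phase and ZT13, ZT17 and ZT21 in the dark phase. In that order, the 30 control libraries were split into groups of 5, 6, 5, 5, 5 and 4 and the 28 diabetic libraries into groups of 5, 5, 5, 4, 4 and 5. Each time point is a different set of animals. Dark-phase retinas were collected under dim red light, and any effect of that cannot be told apart from the time of day. All animals of both groups were perfused with cold buffered saline before dissection, and any effect of that step on these cold-responsive transcripts cannot be told apart from their level in the living retina.

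Cirbp and Rbm3 each hold 1 RNA recognition motif followed by a glycine-rich region, and they bind messenger RNAs and affect their stability, splicing and translation. In other tissues both follow the daily cycle of body temperature, being more abundant when the animal is cooler, which in the nocturnal mouse is the light phase. Cirbp has been reported to stabilise clock transcripts and to sustain the amplitude of the clock in cultured cells, and Rbm3 has been reported to protect neurons and synapses during cooling. Heat shock genes are induced by the opposite change in temperature.

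Cirbp (ENSMUSG00000045193.13) lies on chr10:80165985-80172786 of GRCm38 on the plus strand, with 7 annotated transcripts and no overlapping gene. Rbm3 (ENSMUSG00000031167.16) lies on chrX:8138975-8145880 on the minus strand, with 11 annotated transcripts. An antisense RNA gene, Rbm3os, shares 94 bases of Rbm3's exons, which is 2.0% of their length, and held 0 to 22 reads per library against at least 443 for Rbm3. A pseudogene copy, Rbm3-ps, held 0 to 7 reads. Whether reads were counted by strand was not given in the sources used here, so the few reads of Rbm3os could not be separated with certainty.

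The Cirbp promoter is shown because one of the elements reported to respond to mild cold was described in this gene. The 189 bases below, from the RefSeq promoter set on GRCm38.p6, chr10:80167589-80167777, plus strand, 5′ to 3′, with the mild-cold responsive element TCCCCGCC in capitals, end at the base before the nearest downstream exon of Cirbp. They hold no annotated exon, and lie in an intron of a transcript that begins upstream, at the gene's first annotated base.
Cirbp: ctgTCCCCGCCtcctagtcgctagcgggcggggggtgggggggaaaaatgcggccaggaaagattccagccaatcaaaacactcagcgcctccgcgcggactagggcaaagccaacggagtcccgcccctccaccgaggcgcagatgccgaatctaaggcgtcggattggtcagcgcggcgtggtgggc
The element matched once, 247 bases before the start site of the promoter set, chr10:80167839. That site lies downstream of the printed bases, past the first base of the next exon. On either strand it occurred in 2.86% of 32851 promoter windows of the same length. The window also held 2 GC boxes (GGGCGG, in 22.6% of windows) and 2 CCAAT boxes (CCAAT, or ATTGG on the other strand, in 26.5%). No E-box (CACGTG, in 3.99% of windows), cAMP response element (TGACGTCA, 0.685%) or heat shock element core (GAANNTTC, 4.89%) matched in it. None of these matches overlapped another, and a match of letters is a description and not a measured binding site.

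Depth ranged from 7773117 to 22147398 reads counted on genes per library, and both genes were well covered, with 1559 to 4225 reads per library for Cirbp and 443 to 1268 for Rbm3. The mutated gene, Ins2, had 0 to 6 reads per library and a point mutation does not show in counts, so it gave no check of the genotype labels. Rod markers summed to 36470 to 55090 CPM (counts per 1000000 reads), and each marker of the 8 lists of retinal and vascular cell types had reads in all libraries. The summed CPM ranged from 724 to 911 for cones, 1159 to 1898 for bipolar cells, 690.5 to 947 for amacrine cells, 515 to 842 for ganglion cells, 2648 to 3925 for Muller glia, 15.9 to 29.3 for microglia and 31.1 to 47.8 for endothelium. Markers of blood summed to at most 13.2 CPM and those of cornea and ciliary body to 6.36 to 43.3. Markers of neighbouring tissue varied: the 7 lens markers summed to 949 CPM in control ZT17 replicate 5, 1067 in control ZT21 replicate 2 and 1436 in control ZT1 replicate 6, and to at most 49.3 in the other libraries. The lens marker Lim2 had no read in any library. The 7 retinal pigment epithelium markers summed to 25.4 to 154 CPM at ZT1 and ZT5 and to 60.1 to 336 CPM at the other times, in the libraries of both groups. Their part in the values that follow was not tested.

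Cirbp was the more abundant of the genes. On the scale of CPM per kilobase of exon, its level was 65.3 ± 11.8 (SD, n = 30) among controls and 67.2 ± 8.31 (SD, n = 28) among diabetic retinas. The level of Rbm3 on the same scale was 11.7 ± 1.85 (SD, n = 30) and 12.5 ± 1.93 (SD, n = 28). The length was the union of the exons of all annotated transcripts, 2604 bases for Cirbp and 4698 for Rbm3. Which of the transcripts were expressed was not measured, so the gap between the genes depends on these lengths. All other levels of the genes are given as normalized read counts, that is, reads divided by the size factor of the library. In whole retina, fewer cells that express a gene and less RNA per cell cannot be told apart.

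In control retinas, Cirbp was high from ZT5 to ZT13 and lowest at ZT17. At ZT1 the normalized counts were 2048, 2051, 2175, 2212 and 2269.7, with a mean of 2151 ± 98.7 (SD, n = 5). At ZT5 they ran from 2678 over a median of 2994 to 3145, with a mean of 2937 ± 216 (SD, n = 6). Every library at ZT5 lay above every library at ZT1. At ZT9 the counts were 2127, 2488, 2570.5, 2892 and 3127, with a mean of 2641 ± 385 (SD, n = 5), the widest spread of any control time point for Cirbp. At ZT13 they were 2664, 2710.5, 2748, 2859 and 2879, with a mean of 2772 ± 93.7 (SD, n = 5). The ZT9 libraries thus covered the whole range of those at ZT13, which were tight, and overlapped those at ZT5. At ZT17 the counts were 1652, 1784, 1879, 1973 and 2034, with a mean of 1864 ± 152 (SD, n = 5). At ZT21 they were 1986, 2163, 2279 and 2425, with a mean of 2213 ± 186 (SD, n = 4). All ZT17 libraries lay below all libraries of ZT1, ZT5, ZT9 and ZT13. In the order of the means, ZT5, ZT13 and ZT9 were followed by ZT21, ZT1 and ZT17. Only the step from ZT9 to ZT21, of 428, and the step from ZT1 to ZT17, of 287, exceeded the larger SD of the groups on either side.

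In diabetic retinas, Cirbp again was highest at ZT5 and lowest at ZT17, over a smaller range. At ZT1 the normalized counts were 2159, 2391, 2441, 2492 and 2586, with a mean of 2414 ± 159.6 (SD, n = 5). At ZT5 they were 2478, 2642, 2776, 2852 and 2921, with a mean of 2734 ± 177 (SD, n = 5). These groups overlapped, unlike in control retinas. At ZT9 the counts were 2396, 2613, 2669, 2724 and 3255, with a mean of 2731 ± 318 (SD, n = 5). At ZT13 they were 2178, 2560.5, 2586 and 3013, with a mean of 2584 ± 341 (SD, n = 4). Both groups were spread widely around a level close to that at ZT5. At ZT17 the counts were 1844, 1941, 2314 and 2371, with a mean of 2118 ± 264 (SD, n = 4). At ZT21 they were 2276, 2340.2, 2456, 2703 and 2777, with a mean of 2510.5 ± 221 (SD, n = 5). The ZT17 libraries all lay below those of ZT5 and ZT9 but overlapped those of the other times. The order of the means was ZT5, ZT9, ZT13, ZT21, ZT1 and ZT17, and the step from ZT1 to ZT17, of 296, was the only one above the larger SD.

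**Figure D1:**
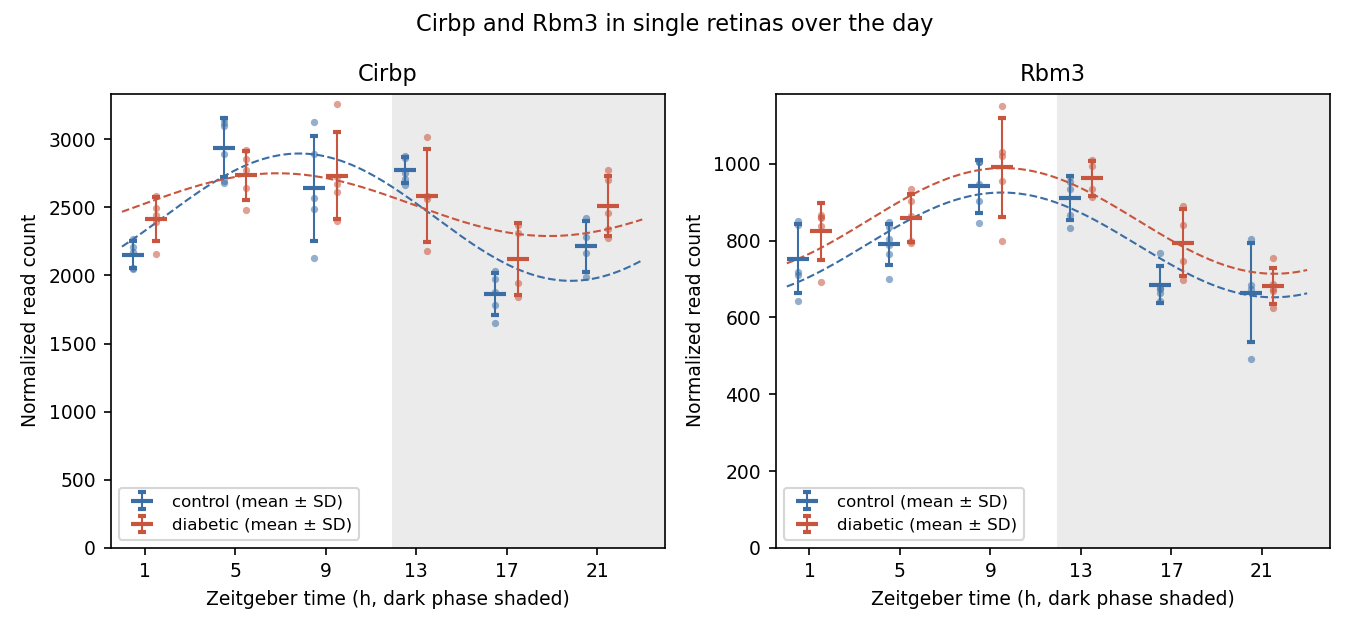
Normalized read counts of Cirbp (left) and Rbm3 (right) against zeitgeber time in hours, with 1 point per retina, bars for the mean ± SD of each group, a dashed cosine of 24 h fitted to each genotype and the dark phase shaded. Cirbp was highest at ZT5 and lowest at ZT17 in both genotypes, and Rbm3 was highest at ZT9 and lowest at ZT21 in both.

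Rbm3 was high at ZT9 and ZT13 and low in the second part of the dark phase, and in control retinas was lowest at ZT21. At ZT1 the normalized counts of Rbm3 were 644, 711, 719.6, 841 and 850.0, with a mean of 753 ± 89.3 (SD, n = 5). At ZT5 they ran from 700.5 over a median of 797 to 849, with a mean of 791 ± 53.7 (SD, n = 6). The libraries of these times overlapped. At ZT9 the counts were 845, 904, 948, 1004 and 1006, with a mean of 941 ± 68.5 (SD, n = 5). At ZT13 they were 832, 868, 936, 952 and 967, with a mean of 911 ± 58.3 (SD, n = 5). Both groups lay above every library of ZT17 and ZT21. At ZT17 the counts were 642, 665, 675, 678 and 767, with a mean of 685 ± 47.6 (SD, n = 5). At ZT21 they were 493, 675, 685 and 805, with a mean of 664 ± 129 (SD, n = 4). The lowest Rbm3 count of the series, 493, was in this group, which also had the widest spread of the control groups. In the order ZT9, ZT13, ZT5, ZT1, ZT17 and ZT21, only the step from ZT13 to ZT5, of 120.1, exceeded the larger SD.

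In diabetic retinas, the order of the Rbm3 means was the same. At ZT1 the normalized counts were 693, 838, 859.6, 863 and 867, with a mean of 824 ± 74.1 (SD, n = 5). At ZT5 they were 794, 799.9, 864, 904 and 934, with a mean of 859 ± 62.3 (SD, n = 5). The libraries of these times overlapped, as in control retinas. At ZT9 the counts were 798, 956, 1021, 1032 and 1150.5, with a mean of 992 ± 129 (SD, n = 5). At ZT13 they were 913, 934, 994 and 1009, with a mean of 962 ± 46.3 (SD, n = 4). The ZT13 libraries lay above all of ZT17 and ZT21. At ZT17 the counts were 698, 748, 841 and 890.1, with a mean of 794 ± 87.1 (SD, n = 4). At ZT21 they were 626, 668, 673, 686 and 754, with a mean of 681 ± 46.7 (SD, n = 5). Here all ZT21 libraries lay below all ZT9 libraries. The steps from ZT13 to ZT5, of 103, and from ZT17 to ZT21, of 113, exceeded the larger SD.

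Both genes met the criterion for a daily rhythm in both genotypes. The question was whether each transcript followed a cycle of 24 h, tested with an empirical JTK_CYCLE test, which compares the rank order of the libraries with reference waves and takes its p-value from shuffled series. A rhythm was called with an unadjusted p under 0.05 and a minimum fold between the highest and the lowest library, which both genes exceeded. In control retinas, that rule called 21.8% of 19086 expressed genes, and 8.25% with the Benjamini-Hochberg adjusted p in its place. In diabetic retinas it called 23.9% of 19145 and 9.79%. For Cirbp the p was 0.000433 in control (adjusted p = 0.0113) and 0.0187 in diabetic retinas, where the adjusted p of 0.113 did not pass. For Rbm3 the p was 3e-06 in control (adjusted p = 0.00039) and 3.6e-05 in diabetic retinas (adjusted p = 0.00216).

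The phases of the fitted cosines lay in the later light phase. For Cirbp the acrophase, the time of the fitted peak, was ZT7.84 ± 0.627 h (SE) in control and ZT6.88 ± 1.20 h in diabetic retinas. For Rbm3 it was ZT9.51 ± 0.585 h and ZT9.56 ± 0.637 h. The fitted peak of Rbm3 thus came after that of Cirbp in both genotypes, a difference that was not tested. Without the ZT5 libraries the order turned in control, with Cirbp at ZT8.75 and Rbm3 at ZT8.59, and with any other single time point left out Rbm3 stayed the later in either genotype. The relative amplitude, the height of the fitted wave over its mean, was 19.3% ± 3.31 (SE) for Cirbp in control and 9.14% ± 2.85 in diabetic retinas. For Rbm3 it was 17.3% ± 2.85 and 16.2% ± 2.61. The cosine took up 56.6% of the variance of Cirbp in control and 29.4% in diabetic retinas, against 58.5% and 60.8% for Rbm3.

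The rhythm of Cirbp in diabetic retinas rested on ZT17. Without the ZT17 libraries its p was 0.127 and its relative amplitude 5.63%. The amplitude moved the other way without the ZT21 libraries, to 14.5% with a p of 0.00331. Without ZT17 replicate 4 or without ZT17 replicate 5 the p was 0.0509 each time. In control retinas without the ZT17 libraries, Cirbp kept a p of 0.00175 and an amplitude of 14.4%. For Rbm3 the highest p with any single time point left out was 0.00027 in control and 0.00266 in diabetic retinas. Without the 3 control libraries with lens markers, the p in control retinas was 0.00219 for Cirbp and 1.5e-05 for Rbm3.

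A test that assumes no wave form asked whether the level differed among the 6 time points at all (edgeR quasi-likelihood F-test with 12 groups, Benjamini-Hochberg adjusted over 19120 genes). Cirbp passed in control (adjusted p = 5e-08) and in diabetic retinas (adjusted p = 0.0169). Rbm3 passed in control (adjusted p = 6.3e-05) and in diabetic retinas (adjusted p = 0.000128). The test called 9.06% of all genes in control and 10.2% in diabetic retinas. By its p, Cirbp ranked 35th in control and 1283rd in diabetic retinas, and Rbm3 202nd and 291st. The call for Cirbp in diabetic retinas was lost without ZT17 replicate 4 (adjusted p = 0.0765) or without ZT17 replicate 5 (adjusted p = 0.115), the libraries with 1941 and 1844 normalized counts.

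Opposite times of day were then set against each other. From ZT5 to ZT17, the middle of the light phase against the middle of the dark phase, Cirbp fell by 0.66 ± 0.08 on the log2 scale (SE) in control (adjusted p = 5.2e-08) and fell by 0.38 ± 0.09 in diabetic retinas (adjusted p = 0.00409). That contrast was called in 15.1% of all genes in control and in 7.36% in diabetic retinas. Across it the summed bipolar cell markers did not overlap either, at 1430 to 1580 CPM at ZT5 and 1680 to 1900 at ZT17 in control and at 1300 to 1510 and 1580 to 1780 in diabetic retinas. Those of Muller glia were 2830 to 3210 and 3410 to 3790 CPM in control, and those of retinal pigment epithelium 25.4 to 36.6 and 80.1 to 185 CPM in diabetic retinas. The bipolar cell markers also did not overlap between ZT9 and ZT21 in either genotype, nor those of retinal pigment epithelium in diabetic retinas. Between ZT1 and ZT13, neither set overlapped in diabetic retinas. Bipolar cell markers were at 1160 to 1480 and 1490 to 1660 CPM, and pigment epithelium markers at 47.7 to 92.9 and 151 to 336. The part of these markers in the contrasts was not tested. For Rbm3 the contrast from ZT5 to ZT17 gave -0.21 ± 0.09 in control (adjusted p = 0.0804) and -0.12 ± 0.09 in diabetic retinas (adjusted p = 0.497), and neither passed. Without control ZT17 replicate 4 the control value was -0.26 and passed (adjusted p = 0.0439). From ZT9 to ZT21 Rbm3 fell by 0.51 ± 0.10 in control (adjusted p = 0.000803) and fell by 0.55 ± 0.09 in diabetic retinas (adjusted p = 6.3e-05), where 2.33% and 5.08% of all genes were called. For Cirbp that contrast gave -0.26 ± 0.09 (adjusted p = 0.116) and -0.13 ± 0.08 (adjusted p = 0.44). Without control ZT9 replicate 5 the control contrast passed (adjusted p = 0.0287), and without diabetic ZT9 replicate 1 the diabetic value was -0.05. From ZT1 to ZT13 Cirbp rose by 0.37 ± 0.08 in control (adjusted p = 0.0205), which 0.847% of all genes did in either direction. Without control ZT1 replicate 4 its adjusted p was 0.059, and without the 3 libraries with lens markers 0.0511. In diabetic retinas the change of Cirbp was 0.09 ± 0.09 (adjusted p = 0.82), with values of 0.01 to 0.17 when a single library was left out, and 1.4% of all genes were called. For Rbm3 it was 0.28 ± 0.09 in control (adjusted p = 0.154) and 0.22 ± 0.10 in diabetic retinas (adjusted p = 0.32). Cirbp thus moved most between ZT5 and ZT17 and Rbm3 between ZT9 and ZT21, among the 3 pairs of opposite times.

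Across the changes of lighting, neither gene passed. From ZT9 to ZT13, over lights off, the log2 differences were 0.06 ± 0.08 for Cirbp and -0.06 ± 0.09 for Rbm3 in control, and -0.08 ± 0.09 and -0.05 ± 0.10 in diabetic retinas. Here 0.126% of all genes were called in control and 0.173% in diabetic retinas. From ZT21 to ZT1, over lights on, the log2 difference of Cirbp was -0.04 ± 0.09 in control and -0.05 ± 0.08 in diabetic retinas. For Rbm3 it was 0.18 ± 0.10 in control (adjusted p = 0.686) and 0.28 ± 0.09 in diabetic retinas (adjusted p = 0.0715). Lights on was called in 0.748% of all genes in control and 2.79% in diabetic retinas. Without control ZT21 replicate 4, the control value of Rbm3 was 0.06. Rbm3 passed this contrast in diabetic retinas without diabetic ZT1 replicate 4 (adjusted p = 0.0342), its lowest ZT1 library, and without control ZT21 replicate 4 (adjusted p = 0.0427). Across lights on the summed bipolar cell markers did not overlap, at 1580 to 1840 CPM at ZT21 and 1360 to 1550 at ZT1 in control and at 1500 to 1620 and 1160 to 1480 in diabetic retinas. The pigment epithelium markers were at 186 to 311 and 29.7 to 105 CPM in control and at 176 to 258 and 47.7 to 92.9 in diabetic retinas, and those of Muller glia at 3220 to 3470 and 2700 to 3130 in diabetic retinas. Over lights off only the bipolar cell markers, of the 12 lists, did not overlap, in both genotypes. The part of these markers in the values was not tested.

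Diabetic and control retinas did not differ in either gene beyond the threshold. Over all libraries, the log2 difference of diabetic minus control was 0.04 ± 0.06 for Cirbp (adjusted p = 0.816), with a 95% interval of -0.07 to 0.16. It was 0.03 without diabetic ZT9 replicate 1 and also without control ZT17 replicate 5, and 0.01 without the 3 libraries with lens markers. For Rbm3 the log2 difference over all libraries was 0.10 ± 0.06 (adjusted p = 0.445), with an interval of -0.02 to 0.21, in a comparison that called 2.99% of all genes. When the 6 time points were compared one by one and averaged, the log2 difference of Rbm3 was 0.11 ± 0.04 (adjusted p = 0.0818) and that of Cirbp 0.06 ± 0.04 (adjusted p = 0.356). The 95% intervals, not adjusted for the number of genes, were 0.034 to 0.185 for Rbm3 and -0.008 to 0.133 for Cirbp. That comparison called 4.64% of all genes. The mean of Rbm3 was higher in diabetic retinas at 6 of 6 time points, by 17.0 to 109 normalized counts. At ZT21 that direction rested on single libraries, with a log2 difference of -0.087 without control ZT21 replicate 4, the library of 493 counts, and of -0.0030 without diabetic ZT21 replicate 2.

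At single time points no comparison of the genotypes passed either. Cirbp was higher in the mean of diabetic retinas at ZT1, ZT9, ZT17 and ZT21, by 0.17 ± 0.08, 0.05 ± 0.08, 0.18 ± 0.09 and 0.18 ± 0.09 on the log2 scale, and lower at ZT5 and ZT13, by differences of -0.11 ± 0.08 and -0.10 ± 0.09. The difference at ZT9 was -0.029 without diabetic ZT9 replicate 1 and -0.024 without control ZT9 replicate 5, and that at ZT13 lay between -0.18 and -0.024 with a single library left out. The times at which diabetic retinas had more Cirbp included the 3 lowest times of control retinas. The control means both set that order and are subtracted in each difference, so no conclusion is drawn from this. The smallest unadjusted p were 0.0421 for Cirbp at ZT1 and 0.0459 at ZT17, and 0.0297 for Rbm3 at ZT17, with adjusted p of 0.884, 0.551 and 0.492. At ZT17 the log2 difference of Rbm3 was 0.21 ± 0.09, with a 95% interval of 0.02 to 0.40. The normalized counts of the genotypes overlapped at all 6 time points for both genes. At ZT5 the summed pigment epithelium markers did not overlap between the genotypes, at 38.4 to 154 CPM in control and 25.4 to 36.6 in diabetic retinas. The part of these markers in the contrasts was not tested. Of all genes, these contrasts called 0.167% at ZT17, then 0.0209% at ZT5, 0.0105% at ZT1 and 0.00523% at ZT9, and 0% at both ZT13 and ZT21. At ZT13 and ZT21, where edgeR called 0 genes, 852 and 892 genes had an unadjusted p under 0.05, and DESeq2 called 1 and 2.

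**Figure D2:**
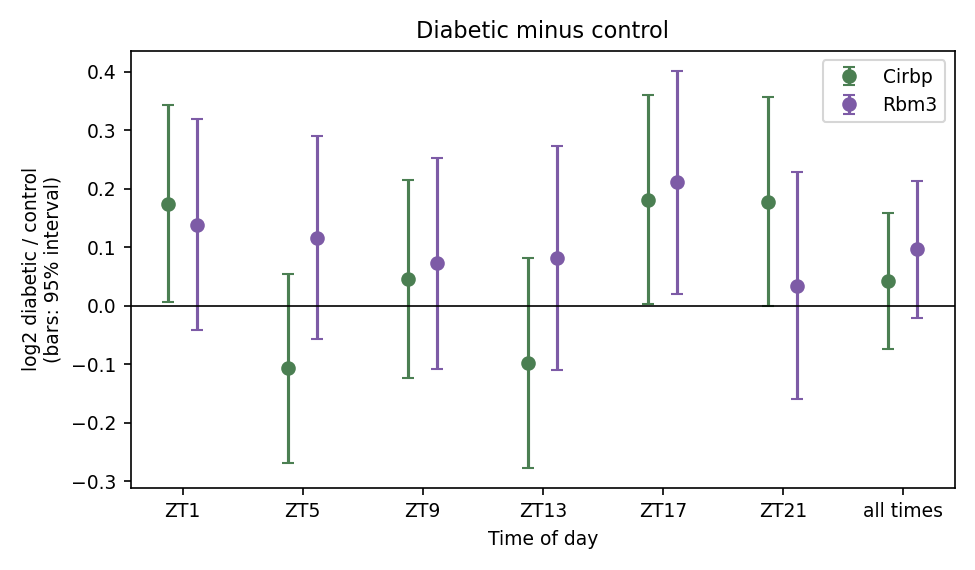
Log2 difference of diabetic minus control (y axis) of Cirbp and Rbm3 at each time point and over all libraries (x axis), as estimated by edgeR, with bars for the 95% interval. All Rbm3 estimates lay above 0, those of Cirbp lay below 0 at ZT5 and ZT13, and none passed after adjustment.

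The difference in rhythm itself was tested by letting the cosine and sine of the time of day interact with genotype. For Cirbp the unadjusted p was 0.0402 and the adjusted p 1.00, so that the amplitudes of 19.3% and 9.14% were not told apart after adjustment. For Rbm3 the unadjusted p was 0.973. The test called 0% of 19120 genes, with 657 genes at an unadjusted p under 0.05. DESeq2 also called 0 genes, and a robust regression in limma called 9, neither of the genes among them. In limma the unadjusted p of Cirbp was 0.000195 and its adjusted p 0.129.

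The ratio of Cirbp to Rbm3 within a library is given as a description. In control retinas it was highest at ZT5, with 3.73 ± 0.426 (SD, n = 6), and lowest at ZT17, with 2.72 ± 0.235 (SD, n = 5), and the libraries of these times did not overlap. The next highest control mean was at ZT21, with 3.42 ± 0.677 (SD, n = 4). At ZT9 it was 2.79 ± 0.221 (SD, n = 5). In diabetic retinas the ratio was highest at ZT21, with 3.71 ± 0.475 (SD, n = 5), where Rbm3 was at its lowest and Cirbp was not. The next highest diabetic mean was at ZT5, with 3.19 ± 0.276 (SD, n = 5). At ZT13 it was 2.69 ± 0.375 (SD, n = 4) and at ZT17 it was 2.69 ± 0.489 (SD, n = 4). As the ratio was formed after the levels were known, it was not tested.

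**Figure D3:**
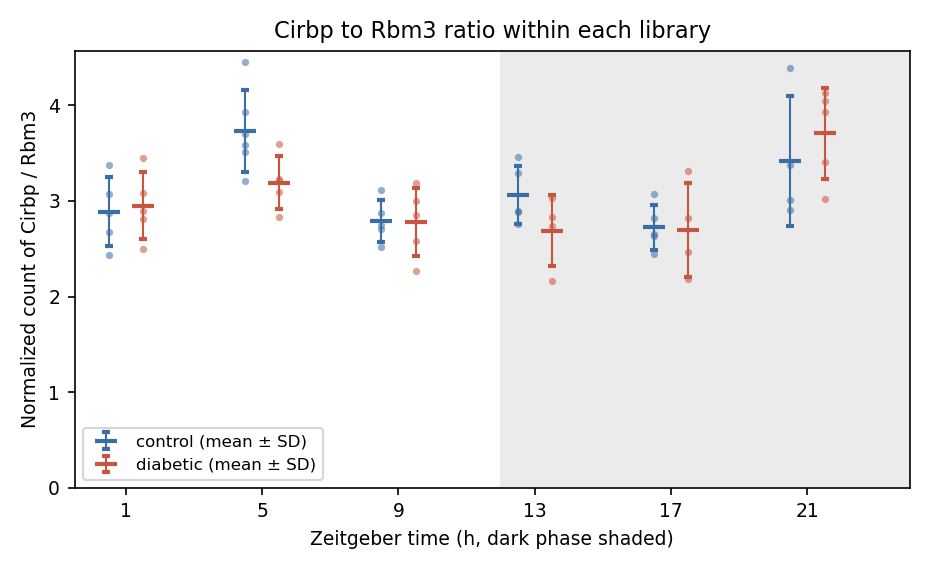
Ratio of the normalized counts of Cirbp to Rbm3 in each retina (y axis) against zeitgeber time in hours (x axis), with 1 point per library, bars for the mean ± SD and the dark phase shaded. The control mean was highest at ZT5 and next at ZT21, and the diabetic mean highest at ZT21 and next at ZT5. At ZT9, ZT13 and ZT17 the means of both genotypes lay between 2.69 and 3.06.

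Retinas of the same genotype and time with more Cirbp did not detectably have more Rbm3. Over 58 libraries, the deviations of log2 CPM from the group means had a Pearson r of 0.186 (p = 0.208 by 100000 two-sided permutations within groups) and a Spearman rho of 0.14 (permutation p = 0.347). Without the 2 libraries farthest from the median of Cirbp, r was 0.13. In the 30 control libraries r was 0.293 (permutation p = 0.136) and rho 0.304 (permutation p = 0.135), and r without the 2 farthest was 0.182. In the 28 diabetic libraries r was 0.075 (permutation p = 0.745), rho was -0.019 (permutation p = 0.932), and r without the 2 farthest was 0.085. Adjusted over these 6 relations, the smallest p was 0.408.

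The time patterns most like those of the genes were sought among 11232 further genes with a mean above 100 normalized counts, by Pearson's r over the 12 group means. As these means share their libraries and depth, r is given as a description. For Cirbp they were Arhgef33 (r = 0.959), Glb1l2, of the beta-galactosidase family (0.956), Nipa2, a magnesium transporter (0.955), Usp28, a deubiquitinase (0.955), and the zinc finger gene Zfp28 (0.953). Of these, Arhgef33 and Glb1l2 passed the test of the 6 time points in both genotypes and Zfp28 in control, with fitted peaks in control from ZT6.72 to ZT7.78. The most opposite were Cdk5r2, an activator of the kinase Cdk5 (r = -0.972), Rbm14, another RNA-binding gene (-0.963), and Wdtc1 (-0.959), none of which passed that test in either genotype.

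For Rbm3 the most similar were 4931406P16Rik (r = 0.953), Son, a splicing cofactor (0.947), Tspan4, a tetraspanin (0.942), Eln, which encodes elastin (0.937), and 1600020E01Rik (0.935). Only Tspan4 and 1600020E01Rik passed the test of the 6 time points, each in both genotypes. The most opposite were Cds1, an enzyme of phospholipid synthesis (r = -0.968), Cd44, the hyaluronan receptor (-0.959), and Cdhr1, a cadherin of photoreceptors (-0.951), of which Cdhr1 passed in both genotypes and Cds1 in control retinas. No gene stood in the lists of both. Between Cirbp and Rbm3 r was 0.636, so that 1878 genes were closer to Cirbp than Rbm3 was and 867 were closer to Rbm3 than Cirbp was.

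Other genes linked to temperature were read from 4 lists, over the contrast across which the bipolar cell markers of both genotypes, the Muller glia markers of control and the pigment epithelium markers of diabetic retinas did not overlap. Of 19 genes of temperature and cold response, all of them tested, 2 passed the test of the 6 time points in each genotype, a share near that of all genes (9.06% in control and 10.2% in diabetic retinas). The genes that passed from ZT5 to ZT17 were all higher at ZT17, 2 in each genotype, where 7.42% of all genes were called higher in control and 3.63% in diabetic retinas. The list's median log2 difference from ZT5 to ZT17 was -0.01 in control, against -0.03 over all genes tested, and 0.06 in diabetic retinas, against -0.02. Ybx3, a cold-shock domain protein that binds RNA, rose by 0.36 ± 0.07 in control (adjusted p = 0.000236) and by 0.25 ± 0.08 in diabetic retinas (adjusted p = 0.0313), opposite in time to Cirbp. Clk3, a kinase that phosphorylates splicing factors, rose by 0.30 ± 0.07 in control (adjusted p = 0.00443), while in diabetic retinas its difference was 0.13 ± 0.08 (adjusted p = 0.357). Ntrk2, the receptor of BDNF, differed by 0.16 ± 0.06 in control (adjusted p = 0.0616) and rose by 0.29 ± 0.07 in diabetic retinas (adjusted p = 0.00213). The splicing factor Srsf2 differed by -0.01 ± 0.08 and 0.04 ± 0.08.

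Among 24 other genes with RNA recognition motifs, Hnrnpdl was the one that passed the test of the 6 time points, which called 9.06% of all genes in control and 10.2% in diabetic retinas. It passed in control (adjusted p = 9.2e-08) and in diabetic retinas (adjusted p = 0.000138). Hnrnpdl, a nuclear ribonucleoprotein, fell by 0.45 ± 0.06 from ZT5 to ZT17 in control (adjusted p = 5.9e-07) and fell by 0.22 ± 0.07 in diabetic retinas (adjusted p = 0.035), with a fitted peak at ZT7.85 in control against ZT7.84 for Cirbp. From ZT5 to ZT17, 3 of the 24 fell in control and 1 in diabetic retinas, where 7.66% and 3.73% of all genes were called lower, and 2 rose in control, where 7.42% were called higher. Hnrnpd, which binds AU-rich elements, fell by 0.31 ± 0.10 in control (adjusted p = 0.0285), and Rbm14 rose by 0.40 ± 0.10 (adjusted p = 0.00663). In diabetic retinas Hnrnpd differed by -0.04 ± 0.11 (adjusted p = 0.878) and Rbm14 by 0.25 ± 0.11 (adjusted p = 0.194). Rbmx, a nuclear splicing regulator, differed by -0.10 ± 0.06 in control (adjusted p = 0.274) and by 0.08 ± 0.07 in diabetic retinas (adjusted p = 0.531). The median of the list was -0.10 in control and 0.02 in diabetic retinas, against -0.03 and -0.02 over all genes tested.

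The heat shock genes that passed from ZT5 to ZT17 were all higher at ZT17. Of 23, 9 passed the test of the 6 time points in control and 5 in diabetic retinas, against 9.06% and 10.2% of all genes. From ZT5 to ZT17 10 rose in control and 3 in diabetic retinas, where 7.42% and 3.63% of all genes were called higher. The list's median log2 difference was 0.29 in control and 0.17 in diabetic retinas, against -0.03 and -0.02 over all genes. Hspa8, the constitutive Hsp70 chaperone, had a mean of 5296 normalized counts at ZT5 and 9180.3 at ZT17 in control, and rose by 0.79 ± 0.11 (adjusted p = 9.9e-07). In diabetic retinas its difference was 0.36 ± 0.12 (adjusted p = 0.0545). Hsp90aa1, the inducible Hsp90, rose by 0.47 ± 0.07 in control (adjusted p = 1.3e-05) and by 0.48 ± 0.08 in diabetic retinas (adjusted p = 7.9e-05). Hsph1, a partner of Hsp70, rose by 0.51 ± 0.10 in control (adjusted p = 0.000156) and differed by 0.02 ± 0.11 in diabetic retinas. Stip1, which links Hsp70 to Hsp90, rose by 0.55 ± 0.10 and 0.36 ± 0.11 (adjusted p = 0.00017 and 0.0349). The fitted peaks of these 4 in control lay between ZT19.2 and ZT20.5.

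**Figure D4:**
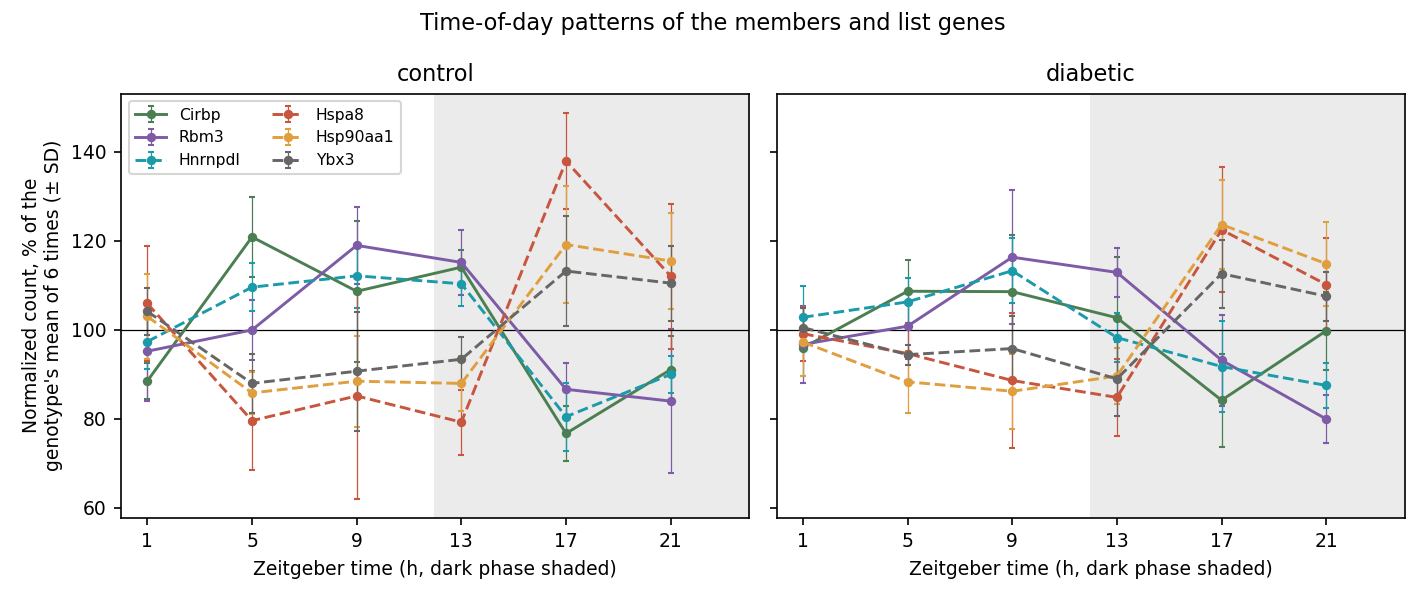
Mean normalized counts ± SD of Cirbp, Rbm3, Hnrnpdl, Hspa8, Hsp90aa1 and Ybx3 as a percentage of each gene's mean over the 6 times in that genotype (y axis) against zeitgeber time in hours (x axis, dark phase shaded), for control (left) and diabetic (right). In control, Cirbp and Hnrnpdl were lowest and Hspa8, Hsp90aa1 and Ybx3 highest at ZT17.

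Of the 15 clock genes the study followed, 7 passed the test of the 6 time points in control and 3 in diabetic retinas, against 9.06% and 10.2% of all genes, and without the 3 libraries with lens markers (control ZT1 replicate 6, ZT17 replicate 5 and ZT21 replicate 2) 3 and 3 did. From ZT5 to ZT17, the genes that passed were all higher at ZT17, 5 in control and 2 in diabetic retinas, with or without those libraries, against 7.42% and 3.63% of all genes. The list's median was 0.20 and 0.14. Rorb, a nuclear receptor, rose by 0.50 ± 0.09 in control (adjusted p = 0.000127) and 0.85 ± 0.10 in diabetic retinas (adjusted p = 3.8e-08). Per2, a clock repressor, rose by 0.43 ± 0.12 and 0.48 ± 0.14 (adjusted p = 0.0145 and 0.0166). Nfil3, a repressor of clock-controlled genes, rose by 0.44 ± 0.11 in control (adjusted p = 0.00547) and differed by 0.24 ± 0.12 in diabetic retinas (adjusted p = 0.245). Between the genotypes over all libraries, 0 of the genes of the other 3 lists and 1 clock gene differed in edgeR, where 2.99% of all genes did. That gene was Cry2, with a log2 difference of 0.11 (adjusted p = 0.0211), which is named here after its value was seen.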

How the data were processed

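The authors counted reads per gene with HTSeq-count 0.11.1 on STAR 2.7.4a alignments (GRCm38.p5, Gencode M15), and deposited these raw counts without normalization. The libraries were of total RNA depleted of ribosomal RNA. Columns were assigned by sample titles. Replicates were biological replicates by the study's methods.

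Genes with a median above 4 normalized counts were tested. Levels were divided by DESeq2 1.42.0 size factors. Differences were tested with edgeR 4.0.16 (quasi-likelihood, TMM, Benjamini-Hochberg over all genes tested) in R 4.3.3; intervals took the residual degrees of freedom. Rhythm was tested with a re-implemented empirical JTK_CYCLE (24 h, 6 phases, 5 widths, 1000000 shuffled series), and phase with a least-squares cosine. The edgeR and JTK_CYCLE tests were tested on simulated data. DESeq2 and limma 3.58.1 were alternatives.

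The members and lists were chosen with earlier results of these data known. Beside both members, the named genes are the 5 most and 3 least similar patterns and, of each list, the 4 with the smallest p over time in control, of which 1 clock gene is not reported here. Exons came from Gencode M21. The marker lists were those of rods, cones, bipolar cells, amacrine cells, ganglion cells, Muller glia, microglia, endothelium, retinal pigment epithelium, lens, blood, and cornea and ciliary body.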

Additional observations from a re-analysis of the deposited data

Results flagged for a closer look

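In 2 of the 24 groups of 4 to 6 libraries (12 for each gene), the highest or lowest library stood apart by Dixon's criterion, where chance gives about 1 group in 20. Rbm3 in diabetic ZT1 replicate 4 had 693 normalized counts, below the other 4, which lay between 838 and 867, with a gap of 0.835 of the group's range against a critical value of 0.71. Rbm3 in control ZT17 replicate 4 had 767 normalized counts, above the other 4, which lay between 642 and 678, with a gap of 0.715 against the same critical value. Without the first, the contrast of Rbm3 over lights on passed in diabetic retinas (adjusted p = 0.0342), and without the second the fall of Rbm3 from ZT5 to ZT17 in control was 0.26 on the log2 scale and passed (adjusted p = 0.0439). No group of Cirbp had such a library.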

How the results depend on the processing

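Each library held at least 1559 reads of Cirbp and 443 of Rbm3. Beside the single libraries left out, 300 values of the tests were recomputed under the alternatives (other scaling, filters, tools and designs, time points left out, the replicate block, and, chosen after seeing the data, the 3 libraries with lens markers left out). Of these, 294 kept their direction and their side of the threshold, 4 lost their call and 2 gained one. The rhythm of Cirbp in diabetic retinas lost its call with the Benjamini-Hochberg adjustment (adjusted permutation p = 0.113), in edgeR's harmonic test (adjusted p = 0.0652) and without the ZT17 libraries (permutation p = 0.127). Without the libraries with lens markers, the rise of Cirbp from ZT1 to ZT13 in control was 0.37 with an adjusted p of 0.0511. The cause was not tested. Of 68 fitted amplitudes and phases, 49 moved by less than 1 SE, and the other 19 all arose from leaving out a time point.

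Same-numbered control and diabetic libraries did not deviate together throughout: of 26 pairs, 13 had a correlation above 0.1, over a range of -0.188 to 0.521, so the numbers were not taken to pair the samples. With the replicate number as a block, the contrast from ZT9 to ZT21 for Cirbp in control was -0.28 (adjusted p = 0.0402) and that from ZT5 to ZT17 for Rbm3 in control -0.24 (adjusted p = 0.0388), both past the threshold. The harmonic test of Cirbp in diabetic retinas passed with the block (adjusted p = 0.0413), and no other call of the genes changed. With the block, 2442 genes passed the test of the 6 time points in control against 1733 without it.

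Over all fits without 1 library, the p of the rhythm of Cirbp in diabetic retinas ranged from 0.00557 to 0.0509 and its adjusted p in the F-test over time from 0.00841 to 0.115. In control, the log2 contrasts of Cirbp ranged from 0.35 to 0.39 (ZT1 to ZT13), -0.33 to -0.19 (ZT9 to ZT21, adjusted p = 0.0287 without control ZT9 replicate 5), -0.0082 to 0.13 (ZT9 to ZT13) and -0.093 to 0.0027 (ZT21 to ZT1). That of Rbm3 ranged from -0.26 to -0.19 (ZT5 to ZT17), -0.09 to -0.02 (ZT9 to ZT13) and 0.06 to 0.28 (ZT21 to ZT1). In diabetic retinas, those of Cirbp ranged from 0.01 to 0.17 (ZT1 to ZT13), -0.17 to -0.05 (ZT9 to ZT21), -0.16 to -0.0062 (ZT9 to ZT13) and -0.08 to -0.0081 (ZT21 to ZT1), and those of Rbm3 from -0.18 to -0.06 (ZT5 to ZT17), -0.12 to 0.014 (ZT9 to ZT13) and 0.25 to 0.34 (ZT21 to ZT1). Diabetic minus control ranged for Cirbp from -0.029 to 0.12 at ZT9, -0.18 to -0.024 at ZT13 and 0.026 to 0.057 over all libraries, and for Rbm3 from 0.084 to 0.20 at ZT1, 0.013 to 0.14 at ZT9, 0.050 to 0.11 at ZT13 and -0.087 to 0.14 at ZT21.

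Counts of called genes moved by over 1.5 times under some alternatives. Without the libraries with lens markers, 50 genes were called from ZT1 to ZT13 and 89 over lights on in control, against 162 and 143. Without a filter on low counts, 294 (control) and 564 (diabetic) were called from ZT9 to ZT21 against 445 and 972, and in diabetic retinas 175 from ZT1 to ZT13 against 268 and 312 over lights on against 533. Over lights off, DESeq2 called 41 and 70 and the replicate block 37 and 69, against 24 and 33. Between genotypes at single times, the counts ranged over 0 to 8 at ZT1, 3 to 28 at ZT5, 0 to 5 at ZT9, 0 to 1 at ZT13, 0 to 90 at ZT17 and 0 to 2 at ZT21. The difference in rhythm called 0 to 9 genes.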
